A study of Mus musculus with 16 samples.

Results

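Brown adipose tissue of 10-day-old pups (P10) was compared with that of embryos at day 18 of gestation (E18), to see which differences from the fetal tissue stood at mid-suckling. The 6 arrays are those whose labels give these ages, 3 for each, out of 16 arrays of a series that covers 5 ages. All animals were C57BL6/N mice with no further genotype or treatment in the labels, and the whole tissue was taken. Total RNA was labelled with Cy3 and hybridised to Agilent 1-colour arrays. The 4 arrays of 4-day-old pups (P4) are used here for levels between the 2 ages and, for a panel of genes, for a test of P10 against P4. Genes on the X and Y chromosomes were left out of every result, apart from a check of the samples.

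Brown adipose tissue burns fatty acids to make heat. Its adipocytes are rich in mitochondria that carry Ucp1, the uncoupling protein that lets protons return across the inner membrane without making ATP. Sympathetic nerves switch the tissue on through beta-adrenergic receptors, and thyroid hormone activated inside the cell by Dio2 strengthens the response. In the mouse the depot forms before birth, meets the cold at birth and is then fed by milk fat throughout suckling.

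Each array was scaled by its own 75th percentile of processed signal, which was 653.3 to 666.8 intensity units at E18 and 571.3 to 749.6 at P10. Levels below are multiples of that percentile on the same array. Fold and log2 changes come from 1 limma fit, with the SE after ±, 3 arrays at each age and limma's p after Benjamini-Hochberg adjustment. The small number of arrays sets the precision. A gene is said to have risen or fallen where adjusted p was under 0.05. Separate animals are not named in the labels for the arrays of 1 age. For 243 probes with at least 8 copies on each array, the same spot differed between E18 arrays by a median of 0.0361 to 0.0556 (log2), against 0.0538 to 0.0635 between copies of a probe on 1 E18 array. P10 replicates 2 and 3, which lie on the slide of the E18 arrays, differed by 0.0406, and replicate 1, on the other slide, differed from them by 0.143 and 0.153. The spread behind the p-values may therefore be technical, and the counts are also given with the 3 E18 arrays as 1 sample and P10 replicates 2 and 3 as 1 sample. The ages also differed in transcripts of the sex chromosomes: Ddx3y, on the Y chromosome, was well above background on 3 of 3 E18 arrays and on 0 of 3 P10 arrays, and Xist, made by the inactive X, stood at 2.03 to 2.14 on the P10 arrays and at 0.0301 to 0.176 on the E18 arrays. Of 2 other Y-linked genes, Eif2s3y read 9.62 and 9.89 on the E18 arrays with a value and 0.0227 to 0.0382 at P10, above background on 1 P10 array. Uty read 0.169 to 0.185 at E18, and at P10 it was above background on replicate 3 alone, at 0.541. Sex and age can therefore not be told apart in any result below. The summed level of 8 brown adipocyte markers was 2822 to 2924 at E18 and 2720 to 3204 at P10, with all 8 above background at both ages.

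Of 15839 genes tested, 3571 (22.5%) rose from E18 to P10 and 4245 (26.8%) fell, so that 49.3% passed in either direction. At least 2-fold changes were found for 750 genes that rose (4.74%) and 748 that fell (4.72%). The median log2 difference of all genes was -0.07. With near-identical arrays counted once, 2397 genes rose and 2388 fell. Scaling by the array median in place of the 75th percentile gave 2670 rises and 2141 falls, and quantile normalization 4197 and 3978. The share of calls that were rises was thus 45.7% in the fit used here, against 55.5% and 51.3% under those scalings.

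The lists of related genes described below differed in how far they moved beyond these shares. All 34 cytoplasmic ribosomal protein genes and 18 of 20 cholesterol synthesis genes were lower at P10. Of the antigen presentation genes 19 of 20 were higher, and of the endothelial genes 22 of 26. In whole tissue, fewer cells of a type and less RNA per cell cannot be told apart.

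**Figure D1:**
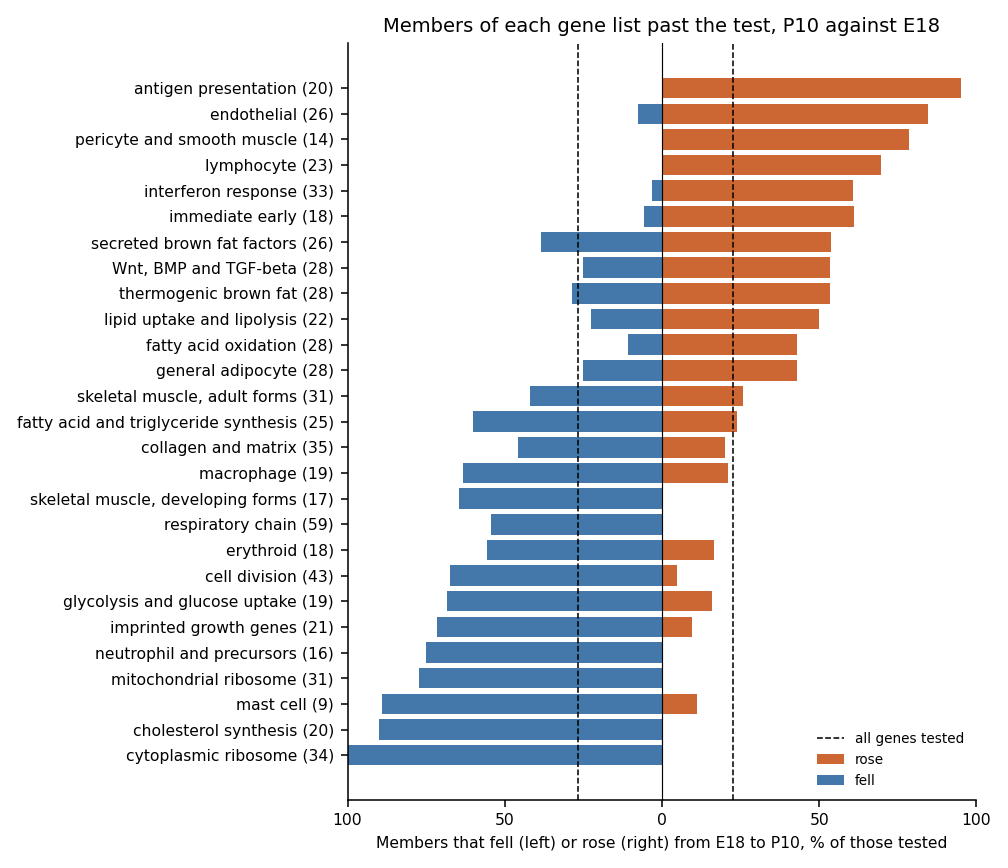
Share of the tested members of each gene list that rose (right, orange) or fell (left, blue) from E18 to P10, in percent, with the number tested in parentheses. The dashed lines mark all 15839 genes tested, at 22.5% rising and 26.8% falling. Antigen presentation and endothelial genes lie far to the right, and cholesterol synthesis and cytoplasmic ribosome genes far to the left.

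Dio2 and Ppargc1a, both far higher at P4, stood near their fetal level again at P10. Dio2, which activates thyroid hormone inside the cell, read 1.70, 1.79 and 1.70 on the E18 arrays and 2.14, 2.03 and 2.07 on the P10 arrays. Between them, the P4 arrays read 14.6 to 16.8. The net rise of Dio2 from E18 to P10 was 1.2-fold (log2 0.27 ± 0.06, limma adjusted p = 0.0017). Its limma adjusted p was above the threshold with median scaling (0.0857), with near-identical arrays averaged (0.0595) and against a 1.2-fold change (0.888). Ppargc1a, the coactivator that drives mitochondrial and thermogenic genes, read 8.28 to 8.52 at E18, 74.1 to 79.0 at P4 and 10.8 to 11.8 at P10. Its net rise was 1.35-fold (log2 0.43 ± 0.06, limma adjusted p = 3e-05). Against P4, both were lower at P10, Dio2 by a log2 change of -2.95 ± 0.05 (limma adjusted p = 4.6e-13) and Ppargc1a by -2.75 ± 0.05 (7.9e-13). In that comparison 54.4% of all genes passed.

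Ucp1 was abundant at both ages. Its levels were 488, 479 and 466 at E18 and 586, 737 and 748 at P10, with replicate 1 lowest among the P10 arrays. They did not overlap between the ages, as was so for 62.5% of all genes tested. The rise was 1.44-fold (log2 0.52 ± 0.16, limma adjusted p = 0.016). It did not pass with near-identical arrays averaged (0.247), without P10 replicate 2 (0.0551), without P10 replicate 3 (0.0593) or against a 1.2-fold change (0.201). Cidea, a lipid droplet protein of brown fat, overlapped between the ages, at 751 to 782 and 720 to 765 (log2 -0.04 ± 0.10, limma adjusted p = 0.77), and its sign turned with median scaling (log2 0.03). Prdm16, a regulator of brown adipocyte identity, read 1.22 to 1.24 at E18 and 1.06 to 1.1 at P10. This fall of 1.14-fold (limma adjusted p = 0.016) did not pass with median scaling (0.59), with near-identical arrays averaged (0.234), with the replicate block (0.0655), against a 1.2-fold change, or without E18 replicate 3 (0.0504) or P10 replicate 2 (0.0524). Elovl3, an elongase of very long chain fatty acids, fell 2.97-fold, from 0.262 to 0.302 down to 0.0810 to 0.118 (limma adjusted p = 2.6e-07).

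Of the 28 thermogenic genes listed, 15 were higher at P10, 8 lower and 5 did not pass, at a median log2 of 0.18, or 0.28 with quantile normalization. The largest rise among them was that of Fabp3, which carries fatty acids inside oxidative cells. Fabp3 read 3.01, 3.12 and 3.01 at E18 and 181, 179 and 180 at P10, with P4 between the ages at a mean of 23.5. No array of 1 age came near those of the other, and the rise was 59.2-fold (log2 5.89 ± 0.07, limma adjusted p = 2e-14). Slc27a2, a fatty acid transporter and activating enzyme, rose 5.84-fold, from 2.12 to 2.17 up to 12.0 to 13.5. Pdk4, the kinase that shuts pyruvate dehydrogenase, rose 3.05-fold, and Otop1, a proton channel, 2.33-fold. Lhx8, a homeobox gene of brown fat, fell 3.83-fold, from 3.36 to 3.46 down to 0.859 to 0.954, and its P4 mean was lower still, at 0.585. Fabp3 is also made in heart and skeletal muscle, and the summed level of 31 adult muscle markers was 323 to 328 at E18, 38.9 to 41.7 at P4 and 255 to 285 at P10.

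In the list of adrenergic and thyroid signalling, 10 of 25 genes rose and 3 fell, while 12 did not pass, with 0.14 as the median log2. The rises numbered 14 with quantile normalization (median log2 0.24) and 7 with median scaling (0.21). Adcy3, an adenylyl cyclase, rose 4.68-fold, from 0.0506 to 0.0977 up to 0.297 to 0.373, and its P4 mean was 1.34. Pde4b, a phosphodiesterase that removes cyclic AMP, rose 2.35-fold, and Adra1a, an alpha-adrenergic receptor, 2.05-fold. Adrb3, the beta-adrenergic receptor of adipocytes, read 6.23 to 6.56 at E18 and 7.57 to 10.0 at P10 (log2 0.38 ± 0.10, limma adjusted p = 0.0061). Adrb3 did not pass with median scaling (0.0848), with the mean of its 2 probes (0.21), with the replicate block (0.0851), with near-identical arrays averaged (0.0603) or against a 1.2-fold change (0.34). Pde3b, a phosphodiesterase that acts in the insulin response, fell 1.62-fold, and Gadd45g, a stress-induced gene, fell 1.68-fold after a P4 mean of 71.3 against 31.9 to 32.9 at E18. Esrrg, a nuclear receptor of oxidative genes, rose 1.46-fold (log2 0.54 ± 0.07).

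**Figure D2:**
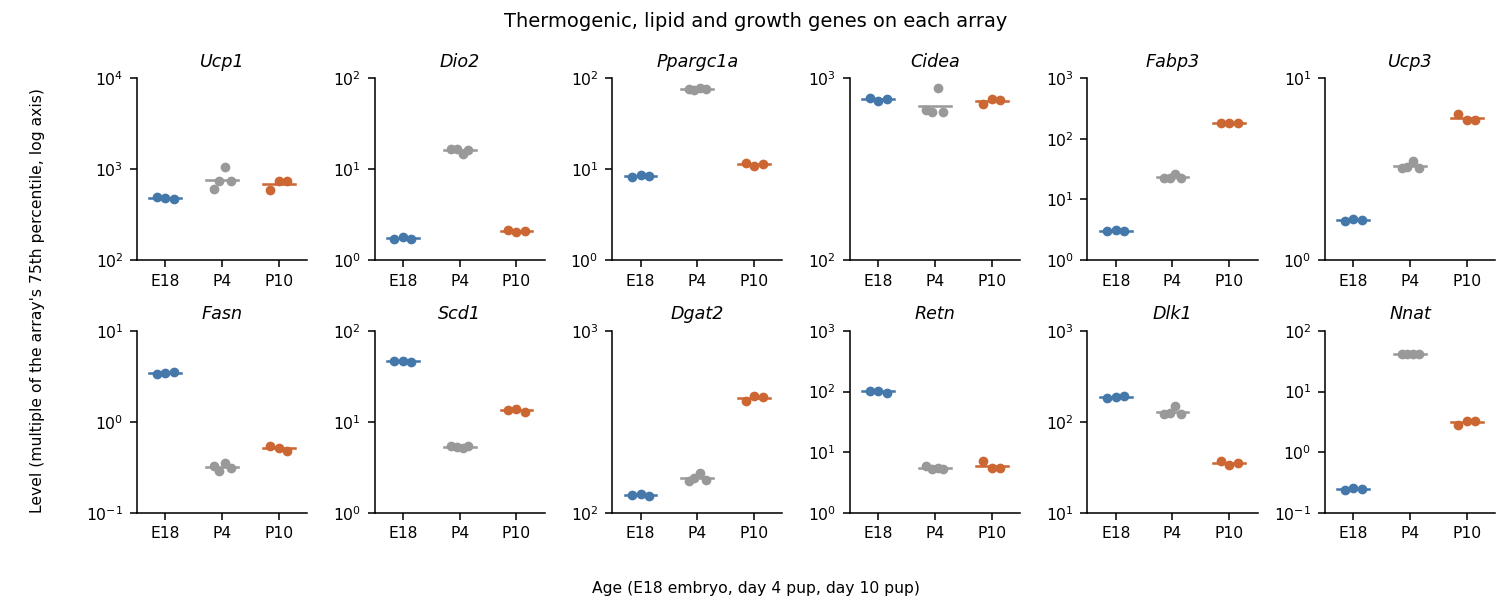
Level of 12 genes on each array (points) at E18 (3 arrays), P4 (4 arrays) and P10 (3 arrays), as multiples of the 75th percentile of the array on a log axis. Lines are means of the log values. Dio2 and Ppargc1a peak at P4 and come back near their E18 level, Fabp3 and Ucp3 go on rising, and Retn and Dlk1 end below E18.

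Most genes of fat synthesis were lower at P10 than in the fetus. Of 25 genes of fatty acid and triglyceride synthesis 15 fell and 6 rose, with 4 not past the test, at a median log2 of -0.45, or -0.18 with quantile normalization, where 12 fell and 8 rose. Fasn, the fatty acid synthase, read 3.34, 3.42 and 3.53 at E18 and 0.543, 0.514 and 0.482 at P10. It fell 6.70-fold (log2 -2.74 ± 0.08, limma adjusted p = 1.9e-11). At P4 Fasn stood at 0.292 to 0.351, and the rise from there to P10 was a log2 change of 0.68 ± 0.07 (limma adjusted p = 4.9e-06). Scd1, a desaturase that makes oleate, went the same way: 46.2 to 47.1 at E18, 5.22 to 5.49 at P4 and 13.0 to 13.7 at P10. Its net fall was 3.47-fold (log2 -1.80 ± 0.06). Scd2, a second desaturase, read 54.6 to 55.2 at E18 and 5.94 to 6.04 at P10, a fall of 9.16-fold (log2 -3.19 ± 0.05, limma adjusted p = 1.7e-13). Srebf1, the transcription factor of the fat synthesis program, fell 3.14-fold, from 3.94 to 4.04 down to 1.2 to 1.37.

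Some members moved against the rest. Dgat2, which adds the last fatty acid to a triglyceride, read 123 to 127 at E18 and 411 to 442 at P10 and rose 3.42-fold (log2 1.77 ± 0.07, limma adjusted p = 1.9e-10). Elovl6, the elongase of palmitate, rose 2.05-fold.

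Cholesterol synthesis fell almost as a whole. Of 20 genes tested 18 fell and 0 rose, 10 of them by at least 2-fold, at a median log2 of -1.03, and 12 fell with median scaling or with near-identical arrays averaged. Insig1, the sterol sensor of the endoplasmic reticulum, fell 3.06-fold, from 1.56 to 1.61 down to 0.487 to 0.541. Cyp51, the lanosterol demethylase, fell 2.98-fold, and Sqle, the squalene epoxidase, 2.81-fold. Sqle differed from the fat synthesis enzymes at P4, where its mean of 3.68 was above the 2.87 to 3.12 of the E18 arrays.

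Lipid uptake and release changed in single steps. Of 22 genes listed 11 rose and 5 fell, at a median log2 of 0.18, or 0.34 with quantile normalization, and 7 rose with median scaling or with near-identical arrays averaged. Mgll, which frees the last fatty acid from a glyceride, rose 2.32-fold, from 47.8 to 48.7 up to 109 to 118. Gpihbp1, the capillary anchor of lipoprotein lipase, read 52.2 to 53.4 at E18 and 81.7 to 82.9 at P10 and rose 1.56-fold (limma adjusted p = 4.5e-07). Lpl, the lipase itself, read 153 to 158 at E18 and 169 to 182 at P10 (log2 0.19 ± 0.08, limma adjusted p = 0.063), and passed under 7 of the 23 other settings. Angptl4, an inhibitor of that lipase, rose 1.85-fold, whereas Angptl8, its insulin-induced relative, fell 5.46-fold, from 32.2 to 33.0 down to 5.88 to 6. G0s2, the inhibitor of the first lipase of lipolysis, fell 3.56-fold, from 82.3 to 83.1 down to 22.5 to 24.1. Pnpla3, a lipid droplet protein, rose 1.57-fold.

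Among 28 genes of fatty acid oxidation 12 rose and 3 fell, at a median log2 of 0.16, and with quantile normalization 23 rose at a median of 0.52. On slide 1 alone the median was 0.09. Ucp3, a mitochondrial carrier related to Ucp1, read 1.63, 1.69 and 1.65 at E18, 3.21 to 3.50 at P4 and 6.35, 5.92 and 5.89 at P10. It rose 3.65-fold (log2 1.87 ± 0.05, limma adjusted p = 1.1e-11). Acot4, a peroxisomal thioesterase, rose 3.50-fold but was highest at P4, at a mean of 3.43 against 0.894 to 0.993 at P10. Cpt1b, which carries long chain fatty acids into mitochondria, rose 1.34-fold, from 35.4 to 36.2 up to 45.5 to 51.6.

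Adipocyte genes at large showed no common direction: 12 of 28 rose and 7 fell, at a median log2 of 0.10, or 0.59 with quantile normalization. Adipoq, the hormone adiponectin, read 232 to 236 at E18 and 146 to 155 at P10 and fell 1.56-fold (log2 -0.64 ± 0.08, limma adjusted p = 1.3e-05). With quantile normalization Adipoq no longer passed (0.0525). Retn, the hormone resistin, was 104, 103 and 96.5 at E18 and 7.25, 5.43 and 5.48 at P10. The fall of Retn was 16.9-fold (log2 -4.08 ± 0.09, limma adjusted p = 2.6e-12), and the P4 mean of 5.43 was already as low. Lep, the hormone leptin, rose 1.53-fold, from 0.0930 to 0.115 up to 0.146 to 0.173. Pck1, which makes the glycerol backbone of triglycerides in fat, rose 1.92-fold.

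Mitochondrial genes gave different answers under different scalings. Of 59 respiratory chain genes outside the sex chromosomes 32 fell and 0 rose, at a median log2 of -0.23, yet 26 rose and 3 fell with quantile normalization (median log2 0.13) and 9 fell with median scaling and 14 with near-identical arrays averaged. The 23 genes of the TCA cycle and pyruvate entry behaved alike, with 3 rises and 10 falls (median log2 -0.13) against 13 and 4 with quantile normalization (0.19). No direction of these lists is therefore given. Of the single genes, Atp5g1, a subunit of the ATP synthase ring, fell 2.47-fold, from 48.3 to 49.9 down to 19.3 to 21.3 (log2 -1.30 ± 0.06, limma adjusted p = 2.1e-09). Atp5c1, the gamma subunit of the same enzyme, fell 2.00-fold, from 198 to 212 down to 96.1 to 114. Suclg1, a succinyl-CoA ligase subunit, rose 1.37-fold, and Ogdh, part of 2-oxoglutarate dehydrogenase, 1.43-fold.

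Cytochrome oxidase has subunits in liver and muscle forms. Cox7a1, the muscle form that brown fat uses, read 544 to 558 at E18 and 606 to 646 at P10 (log2 0.19 ± 0.08, limma adjusted p = 0.073), and passed under 5 of the 23 other settings. Cox7a2, its liver form, fell 1.55-fold, from 207 to 210 down to 122 to 151 (limma adjusted p = 4.1e-05), which did not pass with quantile normalization (0.244) or on the authors' deposited normalized values (0.153). Cox8b, another brown fat form, overlapped between the ages at 549 to 571 and 541 to 682 (log2 0.17 ± 0.15, limma adjusted p = 0.39). Cox8b passed as a rise with quantile normalization (log2 0.25), slide as a block (0.31) and array weights (0.27). Cox4i2, the lung form of subunit 4, rose 1.31-fold, from 1.88 to 1.89 up to 2.33 to 2.56, and did not pass against a 1.2-fold change (limma adjusted p = 0.0926). Slc25a4, an ADP/ATP carrier, overlapped at 167 to 173 and 163 to 177, and did not pass. It was a called rise with quantile normalization (log2 0.48, limma adjusted p = 1.33e-05) and on the authors' deposited normalized values (0.45, 1.16e-05). Over the 12 such genes tested 1 rose and 4 fell, against 6 rises and 0 falls with quantile normalization.

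The machinery that builds proteins was lower at P10. All 34 cytoplasmic ribosomal protein genes tested fell, at a median log2 of -0.83, and with quantile normalization 29 fell and 0 rose (-0.36). Rpl32, of the large subunit, fell 2.03-fold, from 330 to 337 down to 157 to 175, and Rps18, of the small subunit, 2.06-fold, from 140 to 147 down to 65.2 to 74.9. Rpl5 fell 2.11-fold, from 67.3 to 70.2 down to 30.1 to 36.8 (log2 -1.07 ± 0.08, limma adjusted p = 2.5e-07). Of 31 genes of the mitochondrial ribosome 24 fell and 0 rose, at a median log2 of -0.34, or -0.18 with quantile normalization. Falls numbered 10 with median scaling and 14 with near-identical arrays averaged. Mrpl1 fell 2.10-fold, from 3.32 to 3.45 down to 1.58 to 1.65. The paired chaperonins of mitochondrial protein folding, Hspe1 and Hspd1, fell 2.09-fold and 1.66-fold.

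Glycolytic genes fell in 13 of 19 cases and rose in 3, at a median log2 of -0.35, with 7 falls under median scaling, but quantile normalization gave 8 falls and 7 rises (median log2 -0.02). Aldoc, an aldolase, fell 3.84-fold, from 3.02 to 3.04 down to 0.778 to 0.799, and Slc2a1, the basal glucose transporter, fell 2.14-fold. Pfkm, the muscle form of phosphofructokinase, rose 2.17-fold, from 8.12 to 8.36 up to 17.2 to 19.2. Among genes of creatine and calcium cycling, Ckb, the brain form of creatine kinase, rose 3.80-fold, from 1.1 to 1.18 up to 4.18 to 4.6. Alpl, a phosphatase, rose 6.29-fold, from 0.183 to 0.221 up to 1.19 to 1.5 (log2 2.65 ± 0.12, limma adjusted p = 1.1e-09). Sln, a small inhibitor of the calcium pump of the sarcoplasmic reticulum, fell 14.5-fold, from 28.6 to 29.7 down to 1.94 to 2.12. Sln is also one of the listed heart genes. The summed level of 17 developing muscle markers was 88.3 to 88.8 at E18 and 41 to 46 at P10. The part of muscle or heart tissue in the changes of Sln and Pfkm was not tested.

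Most of the listed imprinted genes tied to growth, which include the cell cycle inhibitor Cdkn1c, were lower at P10. H19, a panel gene, was not analysed here. Of 21 imprinted growth genes 15 fell and 2 rose, at a median log2 of -0.64 with fitted values and -0.39 with 1 gene at its bound. Without P10 replicate 1 that median was -0.32, and with near-identical arrays averaged 9 fell. Igf2, the fetal growth factor, read 7.12, 6.91 and 6.84 at E18, 5.28 to 5.65 at P4 and 1.08, 2.00 and 1.94 at P10, with replicate 1 lowest. It fell 4.32-fold (log2 -2.11 ± 0.23, limma adjusted p = 5.3e-06). Dlk1, which holds preadipocytes undifferentiated, read 185 to 191 at E18, 122 to 148 at P4 and 33.8 to 36.7 at P10. The fall of Dlk1 from E18 was 5.36-fold (log2 -2.42 ± 0.08, limma adjusted p = 8.1e-11), and against P4 it was a log2 change of -1.87 ± 0.08 (4.4e-10). Plagl1, a zinc finger factor, fell 7.78-fold, and 3 of its 4 probes fell while 1 rose. Mest, an imprinted gene tied to fat cell size, fell 5.64-fold, from 55.1 to 56.9 down to 9.62 to 10.3, and Cdkn1c, a cell cycle inhibitor, 5.52-fold. Nnat, an imprinted membrane proteolipid, went up instead: 0.241, 0.26 and 0.25 at E18, 41.6 to 42.2 at P4 and 2.79, 3.27 and 3.31 at P10. Its net rise was 12.4-fold (log2 3.64 ± 0.06, limma adjusted p = 1.8e-13).

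RNA-binding proteins of the fetal growth program fell with them. Igf2bp1 read 0.154 to 0.172 at E18 and was not well above background on any P10 array, at least 4.70-fold lower (limma adjusted p = 2.2e-05). Igf2bp3 fell 4.89-fold, from 0.408 to 0.437 down to 0.0849 to 0.0869, and Igf2bp2 fell 1.94-fold. Mycn, a growth-promoting transcription factor, rose 8.13-fold, from 0.0858 to 0.101 up to 0.729 to 0.787. In the list of fetal regulators 9 of 18 fell and 3 rose. Igf1, the postnatal growth factor, fell 4.28-fold, from 7.41 to 7.66 down to 1.70 to 1.86, on all 4 of its probes. Hif3a, a member of the family of hypoxia factors, fell 59.5-fold, from 4.25 to 4.55 down to 0.0516 to 0.0965 (log2 -5.89 ± 0.22, limma adjusted p = 2.2e-10), with 2 of 3 probes falling.

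Cell division genes fell in 29 of 43 cases and rose in 2 (median log2 -0.58), with 18 falls under median scaling and 19 with near-identical arrays averaged. Cdk1, the kinase that starts mitosis, read 2.35, 2.33 and 2.29 at E18 and 1.12, 1.18 and 1.04 at P10, 2.09-fold lower (log2 -1.06 ± 0.18, limma adjusted p = 0.00023), though only 1 of its 3 probes fell past the test. Ccnb1, its cyclin partner, fell 2.21-fold on all 3 of its probes, from 2.34 to 2.41 down to 1.03 to 1.11. Gins1, of the replication fork, fell 2.05-fold. Mki67, a marker of dividing cells, was 11.6 to 12.3 at E18, 16.2 on average at P4 and 8.63 to 9.55 at P10. Its fall of 1.34-fold (limma adjusted p = 0.00059) did not pass with median scaling (0.115) or against a 1.2-fold change (0.113). Cenpa, the centromere histone, rose 1.36-fold.

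Promoters of cell division genes often carry the CHR element, TTTGAA, and CCAAT boxes. Among the 37 listed genes with a RefSeq promoter window, which runs from 250 bases before the start to 50 after, 17 (45.9%) held TTTGAA on either strand, against 20.2% of 27025 genes. CCAAT on either strand was in 28 of the 37 (75.7%), against 41.1% of all genes. Of the 17 genes with TTTGAA 11 fell, and of the 28 with CCAAT 19 fell. In the whole list 29 of 43 fell, so these falls do not set the motifs apart. The letters in these windows are descriptions and not measured sites. The stretches of 120 bases before the start of Cdk1 (GRCm38.p6, chr10:69352913-69353032, minus strand) and of Ccnb1 (chr13:100786487-100786606, minus strand) are shown because both genes fell. Capitals mark CHR and CCAAT letters on either strand.
Cdk1: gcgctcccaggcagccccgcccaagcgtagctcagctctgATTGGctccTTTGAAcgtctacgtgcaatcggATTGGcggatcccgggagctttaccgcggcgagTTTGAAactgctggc
Ccnb1: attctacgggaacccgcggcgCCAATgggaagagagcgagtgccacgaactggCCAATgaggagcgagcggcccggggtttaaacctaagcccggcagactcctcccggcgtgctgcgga
Cdk1 holds each motif in 2 places, and Ccnb1 holds CCAAT in 2 places and no CHR in this stretch.

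The SRE core, TCACNCCAC, was searched in the same windows for the lipid lists. It was in 1 of 12 cholesterol synthesis genes with a window, Hmgcs1, and in 1 of 20 genes of fatty acid and triglyceride synthesis, Mlxipl, against 1.44% of all genes.

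Single matrix genes changed strongly, in both directions. Of 35 collagen and matrix genes 16 fell and 7 rose, at a median log2 of -0.17, and 9 fell with median scaling. With quantile normalization 14 fell and 9 rose at a median of -0.02, so no direction of the list is given. Fbn2, the fetal fibrillin, read 2.48, 2.54 and 2.71 at E18 and 0.233, 0.264 and 0.304 at P10 and fell 9.68-fold (log2 -3.27 ± 0.11, limma adjusted p = 6.6e-11). Col6a1, of the pericellular collagen of fat, fell 2.18-fold, from 59.2 to 61.3 down to 27.3 to 28.2, and Col1a1, of fibrillar collagen, 1.40-fold, from 75.3 to 76.7 down to 53.0 to 55.8. Col8a1, a vessel wall collagen, was not well above background on any E18 array and was at least 6.56-fold higher at P10. Col28a1, a collagen of nerve sheaths, was likewise at least 8.99-fold higher. Thy1, a fibroblast surface protein, rose 3.49-fold, from 1.41 to 1.59 up to 5.06 to 5.52. Sfrp4, a secreted Wnt inhibitor, rose 4.03-fold, whereas Sfrp2, its relative, fell 2.74-fold.

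Vascular genes rose together. Of 26 endothelial genes 22 rose and 2 fell, at a median log2 of 0.61, and with near-identical arrays averaged 21 rose and 1 fell. Their summed level was 483 to 497 at E18 and 653 to 732 at P10. Nos3, the endothelial nitric oxide synthase, rose 2.08-fold, from 9.53 to 10.1 up to 19.6 to 21.6 (log2 1.06 ± 0.07, limma adjusted p = 3.2e-08). Egfl7, secreted by endothelium, rose 2.07-fold, and Tie1, an endothelial receptor, 2.01-fold. Aplnr, the apelin receptor, rose 2.55-fold with a dip between the ages, at 2.79 to 3.01, a P4 mean of 0.956, and 6.57 to 9.04. Pecam1, the junction protein of endothelium, read 1.71 to 1.75 at E18 and 2.27 on all 3 P10 arrays (log2 0.39 ± 0.06, limma adjusted p = 0.00012) and did not pass against a 1.2-fold change (0.0996). Plvap, which forms the diaphragms of fenestrated vessels, ran the other way and fell 4.65-fold, from 7.27 to 7.65 down to 1.57 to 1.64. Of 14 pericyte and smooth muscle genes 11 rose and 0 fell, and 7 rose with median scaling or with near-identical arrays averaged. Rgs5, the pericyte marker, read 2.21, 2.21 and 2.17 at E18 and 14.8, 14.4 and 14.6 at P10 and rose 6.65-fold (log2 2.73 ± 0.06, limma adjusted p = 9.1e-13).

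Antigen presentation showed the broadest rise of any immune list. Of 20 genes 19 rose and 0 fell, 16 of them by at least 2-fold (median log2 1.58), and 19 rose under each scaling and with near-identical arrays averaged. H2-Ab1, a class II chain that displays peptides to T cells, read 0.452, 0.425 and 0.442 at E18 and 12.7, 11.3 and 11.1 at P10. It rose 26.6-fold (log2 4.73 ± 0.06, limma adjusted p = 3e-14) on both of its probes. Cd74, the chaperone of class II, went from 0.231, 0.244 and 0.249 at E18 through 1.38 to 1.68 at P4 to 5.48, 6.15 and 6.08 at P10. The rise of Cd74 was 24.4-fold (log2 4.61 ± 0.07, limma adjusted p = 1e-13), and against P4 it was a log2 change of 1.94 ± 0.07 (1.2e-10). H2-Aa and H2-Eb1, further class II chains, rose by fitted folds of 22.1-fold and 9.63-fold. H2-Aa was above background on only 1 of 3 E18 arrays, and with the dim arrays raised to the lowest signal above background its fold was 22. Histocompatibility genes are near-identical copies in part, so their probes may share signal.

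Lymphocyte markers rose beside them. Of 23 tested 16 rose and 0 fell (median log2 0.96), and their summed level was 16.8 to 18.4 at E18, 16.8 to 19.3 at P4 and 31.7 to 33.4 at P10. Ms4a1, the B cell protein CD20, read 0.0535, 0.0501 and 0.0664 at E18 and 1.31, 1.24 and 1.14 at P10 and rose 21.9-fold (log2 4.45 ± 0.36, limma adjusted p = 3e-07). Cd2, of T cells, rose by a fitted 23.1-fold, or 21.9-fold when its 1 dim E18 array was raised in the same way. Cd3d, of the T cell receptor complex, was not well above background on any E18 array and was at least 11-fold higher at P10. Fcmr, the receptor of IgM, was at least 25.4-fold higher, and Fcrla, a B cell protein, at least 8.15-fold. The part of lymphocytes in the rise of the class II genes, which B cells also make, was not tested.

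Of 33 interferon response genes 20 rose and 1 fell, at a median log2 of 0.36. Rises numbered 17 with median scaling and 15 with near-identical arrays averaged. Cxcl10, an interferon-induced chemokine, rose 8.61-fold, from 0.125 to 0.140 up to 1.03 to 1.27 (log2 3.11 ± 0.11, limma adjusted p = 8.5e-11), and Cxcl9 rose 4.50-fold. Gbp2 and Gbp3, interferon-induced GTPases, rose 2.57-fold and 2.20-fold. Ifit1, a sensor of viral RNA, read 0.221 to 0.278 at E18 and 0.374 to 0.413 at P10 (log2 0.65 ± 0.30, limma adjusted p = 0.089) and passed under 5 of the 23 other settings. Rtp4, a receptor transporter protein, read 8.80 to 9.24 at E18 and 7.32 to 8.24 at P10. Its fall of 1.16-fold did not pass with median scaling (0.527), the replicate block (0.0989), near-identical arrays averaged (0.155) or against a 1.2-fold change.

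Known promoter elements of these genes were looked up in the RefSeq windows. The ISRE core, which is GAAA, any 2 bases and GAAA again, was on either strand in 17 of 25 interferon response genes with a window (68%). Of all genes 3.99% held it. Among the 17 genes 12 rose, beside 20 of the 33 tested in the whole list. A link of the motif to the rise was not tested. In the antigen presentation list the ISRE core was in 2 of 15. The Y box, CTGATTGG, which contains the letters of a CCAAT box on the other strand, was in 9 of those 15 (60%), against 4.70% of all genes. All 9 rose, as did 19 of the 20 genes tested in that list, so their rise does not set the motif apart. The Y box was chosen after the values were seen. The 120 bases before the start are shown for 4 genes that rose, with the match in capitals: H2-Aa (GRCm38.p6, chr17:34287824-34287943, minus strand), H2-Eb1 (chr17:34305747-34305866, plus strand), Gbp2 (chr3:142620543-142620662, plus strand) and the first of 2 windows of Gbp3 (chr3:142559924-142560043, plus strand).
H2-Aa: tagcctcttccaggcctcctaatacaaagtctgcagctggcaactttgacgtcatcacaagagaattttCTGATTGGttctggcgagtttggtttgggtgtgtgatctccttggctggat
H2-Eb1: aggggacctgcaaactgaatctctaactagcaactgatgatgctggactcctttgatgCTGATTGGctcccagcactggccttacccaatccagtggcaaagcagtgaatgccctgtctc
Gbp2: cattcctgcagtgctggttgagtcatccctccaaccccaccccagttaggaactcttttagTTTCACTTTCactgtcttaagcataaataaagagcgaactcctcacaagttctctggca
Gbp3: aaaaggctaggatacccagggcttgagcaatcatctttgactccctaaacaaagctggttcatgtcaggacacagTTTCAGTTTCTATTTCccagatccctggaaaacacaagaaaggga
The Y box begins 51 bases before the start in H2-Aa and 62 bases before it in H2-Eb1. Both Gbp genes hold the ISRE core on the opposite strand, Gbp3 as 2 overlapping matches.

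Granulocyte and mast cell genes had fallen by P4 and stayed low. Of 16 neutrophil genes 12 fell and 0 rose, at a median log2 of -2.17, or -1.10 with normexp background correction, and 8 fell with near-identical arrays averaged. Their summed level was 66.7 to 68.2 at E18, 12.4 to 13.4 at P4 and 13.0 to 13.8 at P10. S100a8, a calcium-binding protein of neutrophils, read 11.9, 11.3 and 12.4 at E18 and 1.72, 1.55 and 1.52 at P10 and fell 7.44-fold (log2 -2.90 ± 0.06, limma adjusted p = 1.5e-12). Its P10 level differed from that at P4 by a log2 change of -0.05 ± 0.06 (limma adjusted p = 0.51). Camp, an antimicrobial peptide of their granules, fell 8.84-fold, from 3.47 to 3.53 down to 0.382 to 0.411. Of 9 mast cell genes 8 fell and 1 rose, and 5 fell with near-identical arrays averaged. Cpa3, the mast cell carboxypeptidase, read 23.8, 23.4 and 24.4 at E18 and 1.17, 1.17 and 1.2 at P10 and fell 20.3-fold (log2 -4.34 ± 0.11, limma adjusted p = 5.6e-12). Cma1, a mast cell protease, fell 8.70-fold, while Gata2, a factor of mast cells and other blood cells, rose 1.60-fold. Fcer1a, of the IgE receptor, read 0.387 to 0.472 at E18 and 0.0336 to 0.122 at P10, and its fitted fall of 7.47-fold, with 1 P10 array below background, did not pass with near-identical arrays averaged (0.0608).

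Macrophage genes fell in 12 of 19 cases and rose in 4 (median log2 -0.25), at summed levels that overlapped (69.5 to 71.2 at E18, 60.3 to 70.3 at P10). With median scaling or with near-identical arrays averaged, 8 fell. Mrc1, the mannose receptor, fell 2.49-fold, from 3.57 to 3.63 down to 1.43 to 1.47, and Lyve1, a hyaluronan receptor of some macrophages and of lymphatics, 2.53-fold. Folr2, a folate receptor of resident macrophages, rose 1.85-fold. Among complement and acute phase genes, 8 of 17 rose and 5 fell. Hp, which binds free hemoglobin, rose 2.87-fold, and Lcn2, an iron-binding protein of neutrophils and inflamed tissue, fell 5.20-fold. Retnla, a resistin-like protein of macrophages and fat, had the largest fitted rise among the genes that met the rule for named genes. It read 0.00722 to 0.00918 at E18, not well above background on any array, and 7, 6.2 and 6.19 at P10, at least 187-fold higher (limma adjusted p = 2.1e-15), with a P4 mean of 0.445.

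**Figure D3:**
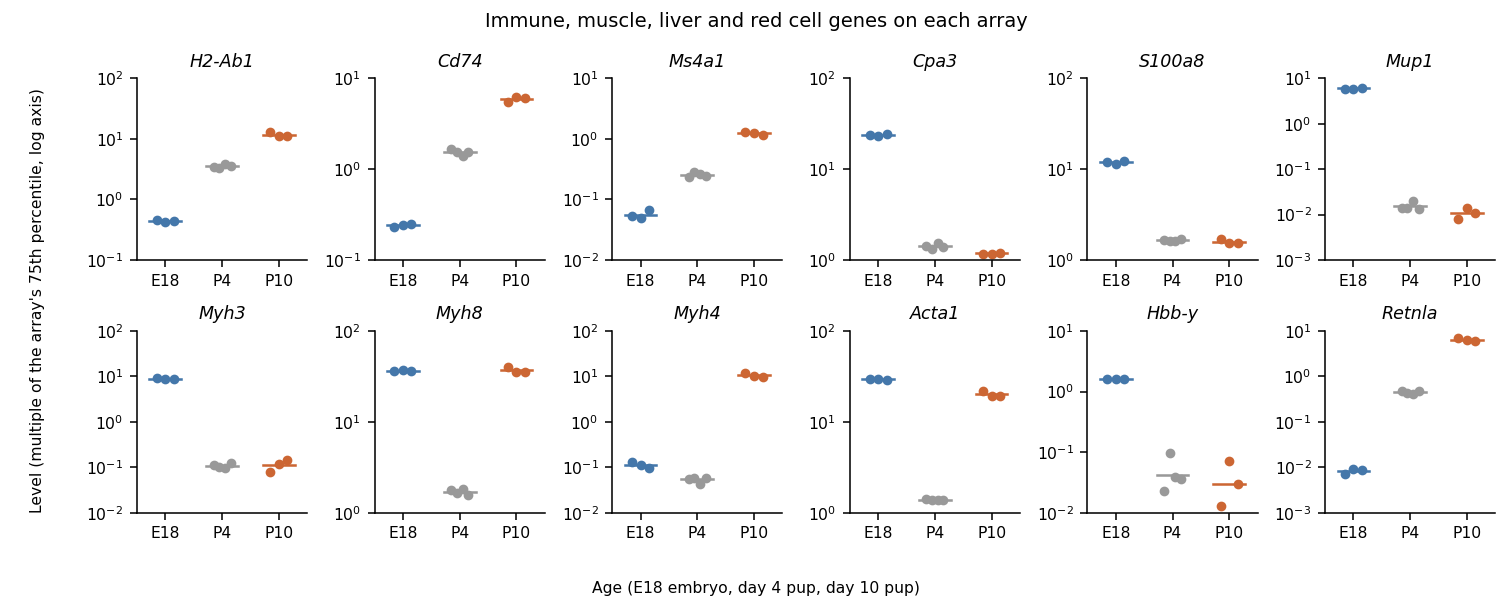
Level of 12 immune, muscle, liver and red cell genes on each array (points) at E18 (3 arrays), P4 (4 arrays) and P10 (3 arrays), as multiples of the 75th percentile of the array on a log axis. Lines are means of the log values. H2-Ab1, Cd74 and Ms4a1 rise from age to age, Cpa3, S100a8 and Mup1 fall between E18 and P4, and Myh8 and Acta1 are low at P4 alone.

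Skeletal muscle transcripts were present at E18 and P10 and lower at P4, and the myosins differed between the outer ages. Of 31 adult muscle genes 8 rose and 13 fell from E18 to P10, at a median log2 of -0.27, and with near-identical arrays averaged 5 rose and 9 fell, whereas 31 of 31 rose from P4 to P10 (median log2 3.73, where 26.8% of all genes rose). Acta1, skeletal actin, read 30.0, 29.5 and 28.7 at E18, 1.37 to 1.41 at P4 and 21.8, 19.4 and 19.3 at P10, and fell 1.46-fold (log2 -0.54 ± 0.05, limma adjusted p = 1e-06). Myh3, the embryonic myosin, read 9.12, 8.96 and 8.70 at E18 and 0.0773, 0.117 and 0.146 at P10 and fell 81.3-fold (log2 -6.35 ± 0.21, limma adjusted p = 6e-11). Actc1, the actin of heart and of fetal muscle, fell 45.7-fold, from 26.3 to 26.8 down to 0.555 to 0.611. Myh8, the perinatal myosin, overlapped at 36.1 to 36.9 and 35.2 to 39.8 (log2 0.01 ± 0.18, limma adjusted p = 0.96) with a P4 mean of 1.71, and did not pass. With the mean of its probes Myh8 was a called fall (log2 -0.30, limma adjusted p = 0.0454), and its sign also turned under 4 other settings. Myh4, a fast adult myosin, rose 92.6-fold, from 0.0977 to 0.132 up to 9.73 to 11.7 (log2 6.53 ± 0.16, limma adjusted p = 3.6e-12), and Myh1, another fast myosin, 39.1-fold. Of 17 genes of developing muscle 11 fell and 0 rose, and 8 fell with near-identical arrays averaged. Tuba8, a tubulin of muscle and testis, rose 34.8-fold, from 0.494 to 0.565 up to 17.5 to 20.8.

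Major urinary protein genes and the embryonic globin Hbb-y were among the genes that fell most. Mup18, a major urinary protein gene, read 9.36, 9.14 and 9.19 at E18 and was not well above background at P10, at least 263-fold lower (limma adjusted p = 1.7e-12). Mup1 was at least 170-fold lower, Mup17 at least 162-fold and Mup20 at least 52.3-fold, and Mup19, above background on all P10 arrays, fell 163-fold, from 12.4 to 12.8 down to 0.0438 to 0.120. These genes are near-identical copies whose probes may share signal. Of 14 liver genes tested 6 fell, 0 rose and 8 did not pass, at summed levels of 18.8 to 19 at E18 and 6.95 to 8.57 at P10. Mup1, Mup3 and Mup20 were among the 6. Another 7 of the 21 listed, Alb, Apoa1, Apob, Ttr, Fgg, Ahsg and Ambp, were too dim to test. Afp, the fetal albumin relative, was at least 4.10-fold lower at P10. Hbb-y, an embryonic globin, read 1.59 to 1.63 at E18 and was above background on 1 of 3 P10 arrays, and its fitted fall was 53.0-fold (log2 -5.73 ± 0.74, limma adjusted p = 2.5e-05). With the dim arrays raised to the lowest signal above background the fall of Hbb-y was 34-fold. Hba-x, another embryonic globin, was at least 8.45-fold lower. Hbb-bh1, a further one, named after its values were seen, overlapped at 0.215 to 0.25 and 0.0582 to 0.249 and did not pass (limma adjusted p = 0.378). Of 18 erythroid genes 10 fell and 3 rose. Tfrc, the transferrin receptor that brings iron into many cells, rose 11.8-fold on all 3 of its probes, from 5.36 to 5.48 up to 62.3 to 67.1 (log2 3.56 ± 0.05, limma adjusted p = 3e-14), and the P4 mean was 7.66.

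Single secreted, clock, glucocorticoid-induced and immediate early genes gave further large changes. Of 26 secreted factors of brown fat 14 rose and 10 fell. Ptgds, a prostaglandin D synthase, read 0.173, 0.180 and 0.188 at E18 and 3.34, 3.29 and 3.36 at P10 and rose 18.5-fold (log2 4.21 ± 0.09, limma adjusted p = 1.5e-12). Kng2, a kininogen, rose 8.66-fold, from 0.140 to 0.167 up to 1.22 to 1.36. Of 17 clock genes 8 rose and 4 fell: Hlf, an output factor, rose 3.55-fold and Nr1d1, a clock repressor, 2.32-fold, and Arntl, a core activator, fell 1.73-fold, from 1.48 to 1.59 down to 0.849 to 0.923. The labels give no time of day. Of 13 glucocorticoid-induced genes 5 rose and 8 fell. Zbtb16, a zinc finger factor, fell 3.57-fold, Mt2, a metallothionein, 3.12-fold, and Fkbp5, a chaperone of the glucocorticoid receptor, 2.08-fold, whereas Klf9 rose 2.24-fold and Sgk1 2.03-fold. Of 18 immediate early genes 11 rose and 1 fell, and 8 rose with median scaling or with near-identical arrays averaged. Nr4a1, a rapidly induced nuclear receptor, read 3.80 to 3.96 at E18 and 16 to 18 at P10 and rose 4.27-fold. Atf3, a stress factor, rose 3.64-fold from E18, from 0.150 to 0.177 up to 0.566 to 0.630, below its P4 mean of 3.20.

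Signalling, position and nerve genes were the last lists compared. Of 28 genes of Wnt, BMP and TGF-beta signalling 15 rose and 7 fell (median log2 0.45). Rises numbered 13 with median scaling and 10 with near-identical arrays averaged. Sfrp5, a Wnt inhibitor made by fat, rose 6.23-fold, from 0.0703 to 0.0943 up to 0.471 to 0.548, and Tgfbi, a matrix protein induced by TGF-beta, rose 3.58-fold. Nog, an inhibitor of BMPs, fell 2.89-fold. Of 22 genes that mark body position 4 rose and 4 fell, while 14 did not pass. Hoxa7 rose 2.67-fold, from 1.48 to 1.57 up to 3.77 to 4.80, and Tbx15, a factor of trunk fat and muscle, fell 2.46-fold. Of 14 Schwann cell and nerve genes 6 rose and 1 fell, with Gfra3, a receptor of nerve growth signals, up 3.05-fold.

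**Figure D4:**
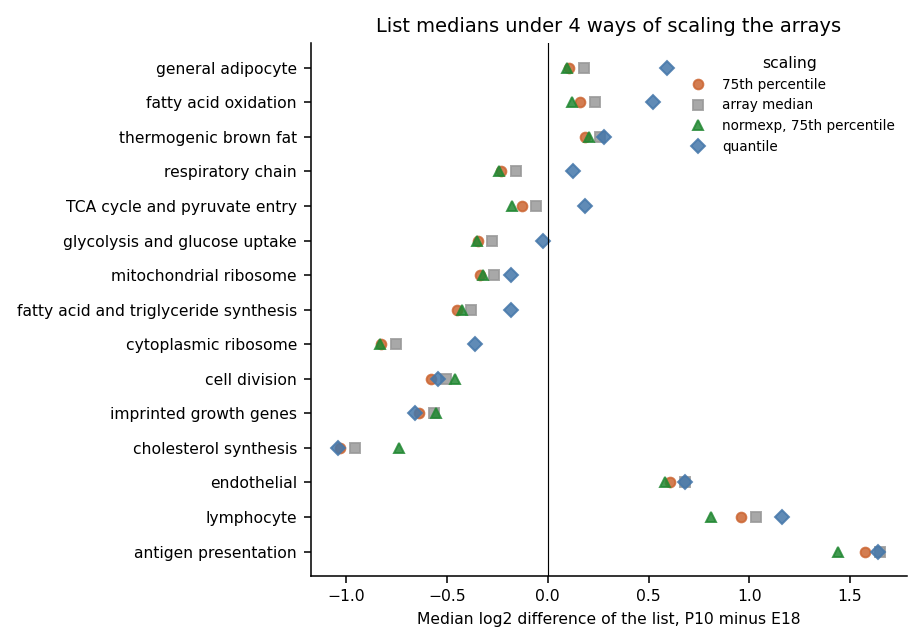
Median log2 difference (P10 minus E18) of 15 gene lists under 4 ways of scaling the arrays, each shown by its own symbol. Antigen presentation, lymphocyte and endothelial lists stay above 0 and cholesterol synthesis, cell division and imprinted growth lists below 0, while the respiratory chain and TCA lists change sign with quantile normalization.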

How the data were processed

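The intensities are Agilent processed signals of 1-colour arrays, background-corrected by Feature Extraction before they were deposited, per the file headers. The headers name version 11.5.1.1 and the submitters' processing notes 11.0.1.1. The deposited series table holds log2 values that match quantile-normalized processed signals, and was used as an alternative setting only.

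Each array's log2 signal was centred on its 75th percentile over non-control spots, marked spots were treated as missing, and spots of a probe were averaged. Probes were named through RefSeq (GRCm38.p6), kept if well above background on at least 3 of 16 arrays, and the kept probe with the highest mean stood for its gene. One limma 3.58.1 model (R 4.3.3) with age was fitted to all 16 arrays, and p-values were adjusted over all 16436 genes, of which 597 X- and Y-linked genes were then left out. Promoter sequences are RefSeq's for the same build. A fold written as "at least" sets the brighter age against the lowest signal that counts as above background on each array of the dimmer age.

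On simulated data of the same 16436 genes for P10 against E18, 9, 36, 38 and 45 of 50 genes were recovered at log2 changes of 0.25, 0.5, 1 and 2, with 7 false calls. The simulated arrays varied independently, with the spread seen between arrays of 1 age, which may be technical. The simulation therefore cannot give the rate of false calls between animals. Genes named are a fixed panel, the 10 that rose and the 10 that fell most, up to 4 per list in its main direction and up to 2 in the other, and tissue forms, and some genes that the rule names are not reported here. The members and lists were chosen with earlier results of these data known. Scalings, background correction, filters, probe choice, slide and replicate blocks, array weights, a 1.2-fold threshold and leaving out each array were tried.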

Additional observations from a re-analysis of the deposited data

Results flagged for a closer look

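The 4 P4 arrays were checked for an array apart from the other 3 in the 11 genes whose P4 levels were tested or described by array. The gap to the nearest array, as a share of the whole log2 range, was 0.932 for Ucp3, 0.852 for Acta1 and 0.838 for Dlk1. Chance gives such a gap in about 1 of 20 groups.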

How the results depend on the processing

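Of 15839 genes, 2141 fell with median scaling. Against a 1.2-fold change 1968 rose and 2074 fell, and with near-identical arrays averaged, which was chosen after seeing the data, 2388 fell. Changes of at least 2-fold numbered 469 up and 429 down with normexp background correction. Leaving out each array in turn gave 3217 to 3424 rises, 3745 to 4378 falls, 715 to 770 rises of at least 2-fold and 719 to 814 such falls. These counts stayed within 1.5 times of the reported ones under the other settings. Same-numbered arrays correlated in their deviations from the age means at 0.17, 0.08 and 0.10, so the numbers were not taken as pairs. With the replicate block 3069 genes rose and 3770 fell. Of the 166 gene results, 11 lost and 7 gained their call under some setting. The sign turned for Cidea with median scaling (0.033), and for Myh8 with the mean of its probes (-0.30), slide as a block (-0.026), slide 1 alone (-0.040) and array weights (-0.034), with -0.040 to 0.049 over arrays left out. It turned for Slc25a4 with quantile normalization (0.48), median scaling (0.057), the authors' deposited normalized values (0.45) and near-identical arrays averaged (0.0030), with -0.053 to 0.0086 over arrays left out. The causes were not tested. Genes above background on no array of an age have only bounds, and those above it on some arrays have fitted values.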
